A study of Homo sapiens with 2 samples.

Results

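PLEC, the gene of plectin, held 46 of the 6754 SRSF1 crosslink sites listed for H1299 cells (0.681%, exact 95% interval 0.499 to 0.907%). The gene was chosen by its many listed sites, so the number and crowding of its sites are given as a description, with no test. Its sites are the listed intervals on the minus strand of chromosome 8 with a midpoint between 144989300 and 145051000 (hg19), a window of 61.7 kb that is read from high to low coordinates. The RNA's 3′ end is therefore at the low end of the window. The annotated gene is 61588 nt long on the same strand, and the name rests on that window, since no annotation of the build was used. The study has 2 samples, replicates 1 and 2 of SRSF1 HITS-CLIP in H1299, an established line grown from a human lung carcinoma. No treatment, genotype or control library is given in the labels. The deposited sites form 1 list for the whole series and are not split by replicate, so no value below has a replicate check. Intervals in brackets cover counting error only and treat sites as independent, which sites of 1 RNA are not. The list gives no expression levels, so the cell line could not be checked against markers.

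Plectin is a very large linker protein that ties intermediate filaments to actin filaments, microtubules and membrane junctions. Its gene has several alternative first exons, and most of the coding sequence lies in its last pair of exons. The second-to-last exon encodes the coiled-coil rod and the last exon encodes the plakin repeats that bind intermediate filaments. SRSF1, a splicing factor of the SR family, binds purine-rich stretches of exons, often at GGA-containing motifs, and also stays with spliced mRNA. In HITS-CLIP, ultraviolet light joins a protein to the RNA it touches, and the RNA fragments that come down with the protein are sequenced as tags. A truncation site is a position where reverse transcription repeatedly stopped, and a mutation site is one where tags carry a mutation. For a truncation site the list gives the truncated tags, the number expected per position of the tag cluster it lies in, and a P of the authors. For a mutation site it gives the tags that cover it and the tags mutated there.

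The sites lay in the 3′ part of the gene. Within 11 kb of the low end of the window lay 29 of the 46 sites (63.0%, 47.5 to 76.8%), on 17.8% of the window's length. The other 17 sites lay between 12186 and 25683 nt from that end. The remaining 36.0 kb, up to the side of the alternative first exons, held 0 listed sites, which allows up to 0.102 per kb by the exact 95% Poisson interval. Site density was 2.64 per kb (1.77 to 3.79) in the last 11 kb and 0.335 per kb (0.195 to 0.537) in the rest of the window, a ratio of 7.86 (4.18 to 15.3). This contrast between the long last exons and the upstream gene is the one for which the gene was picked.

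That ratio is per genomic length, and no excess was detectable per length of mature mRNA. The last pair of exons makes up 69.7 to 72.5% of the mRNA in the 7 annotated PLEC transcripts that carry both at full length, and 63.0% of the sites lay in the last 11 kb. Per kb of annotated mRNA the ratio of the last pair of exons to the upstream exons was 0.743 (0.395 to 1.44) with the longest upstream exons and 0.646 (0.343 to 1.25) with the shortest. Both intervals include 1, and both values count every upstream site as exonic. Counted over the 14.7 kb upstream that did hold sites, the genomic ratio was 2.28. How many of the 17 upstream sites are exonic and how many intronic was not determined, because the exon annotation used here is of another genome build (GRCh38) and was used for exon lengths alone.

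**Figure D1:**
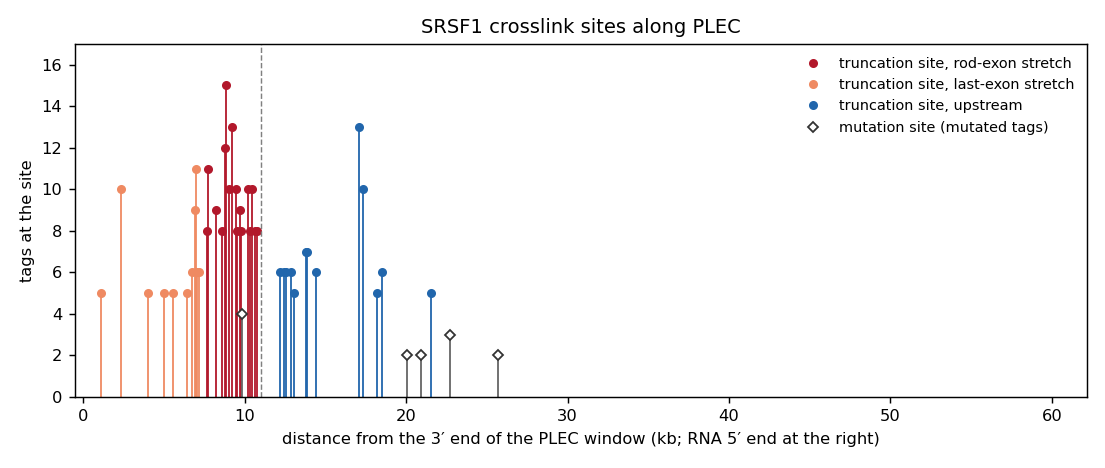
SRSF1 crosslink sites along PLEC. Each stem is 1 listed site, placed by its distance in kb from the 3′ end of the 61.7 kb window, and its height is the truncated tags (circles) or mutated tags (diamonds) there. The dashed line marks 11 kb, with 29 sites to its left and 17 to its right, and no site is listed beyond 25.7 kb.

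The exon lengths divide the last 11 kb further. The last exon is 7243 nt long, the intron before it 108 nt and the second-to-last exon 3381 nt, 10732 nt together. The window is 113 nt longer than the annotated gene, so distances counted from the 3′ end may be off by up to that much if the gene has the same length in both builds. Of the 29 sites, 28 fall in the same exon length wherever the gene ends within those 113 nt. The exception is the site at 145000078 to 145000098, which lies 10788 nt from the window's end and may be just upstream of the rod exon. It was counted with the rod exon. On this scale the rod-exon stretch held 18 sites (39.1% of the gene's sites, 25.1 to 54.6%), although the rod exon is 22.2 to 23.1% of the mRNA. The last-exon stretch held 11 sites (23.9%, 12.6 to 38.8%), although that exon is 47.5 to 49.5% of the mRNA. Density was 5.32 sites per kb (3.16 to 8.41) over the rod exon's length and 1.52 per kb (0.758 to 2.72) over the last exon's length, a ratio of 3.51 (1.57 to 8.21). Leaving out the 1561 nt spanned by the tag cluster with most sites, and the 11 sites in them, gave a ratio of 2.53 (0.832 to 7.15), an interval that includes 1. Without the site of uncertain place it was 3.31.

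In the rod-exon stretch the 17 truncation sites followed each other over 3145 nt, from 144996954 to 145000098. The gaps between neighbouring truncation sites there had a median of 193 nt and a range of 39 to 485 nt. The sites fell into 3 tag clusters that carry consecutive numbers, 11426, 11427 and 11428. Cluster 11428 held 10 truncation sites in 1561 nt. Of the 4370 clusters in the list that hold a truncation site, only 1 held more, and 1 other held the same number. By the span of its sites it was the second widest in the list. Cluster 11427 held 5 sites in 845 nt and was the third widest. Cluster 11426 held the remaining 2 sites.

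Within the rod-exon stretch the tag numbers of the listed sites were even. All 17 truncation sites had between 8 and 15 truncated tags, with a median of 9. Positions with fewer tags may be missing from this range, since no listed truncation site has a P above 0.001. The highest was at 144998116 to 144998136 with 15 truncated tags against 0.42 expected (P = 1.18e-13 as deposited by the authors), which is also the lowest P in the gene. A neighbour centred 39 nt closer to the 3′ end, at 144998077 to 144998097, had 12. The second-highest site of the stretch, at 144998538 to 144998558, had 13 truncated tags against 0.36 expected. The lowest value, 8 tags, was shared by 7 sites spread from one end of the stretch to the other. The stretch held 165 of the 326 truncated tags at PLEC sites (50.6%).

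The last-exon stretch was sparser and lower. Its 11 truncation sites had a median of 6 truncated tags (range 5 to 11), and the median gap between them was 442 nt (range 39 to 1688 nt). The farthest downstream was the site at 144990388 to 144990408, 1098 nt from the end of the window, with 5 truncated tags. The next, at 144991617 to 144991637, had 10 truncated tags against 0.28 expected. Beyond it came 4 sites with 5 tags each, up to 144995746. The last 5 sites were packed at the 5′ side of the stretch, between 144996047 and 144996468, with 6, 9, 11, 6 and 6 truncated tags in order of rising coordinate. Of these, 4 belong to cluster 11425 in 237 nt, the single last-exon cluster with more than 1 site. Together the 5 sites held 38 of the 73 truncated tags of the stretch.

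**Figure D2:**
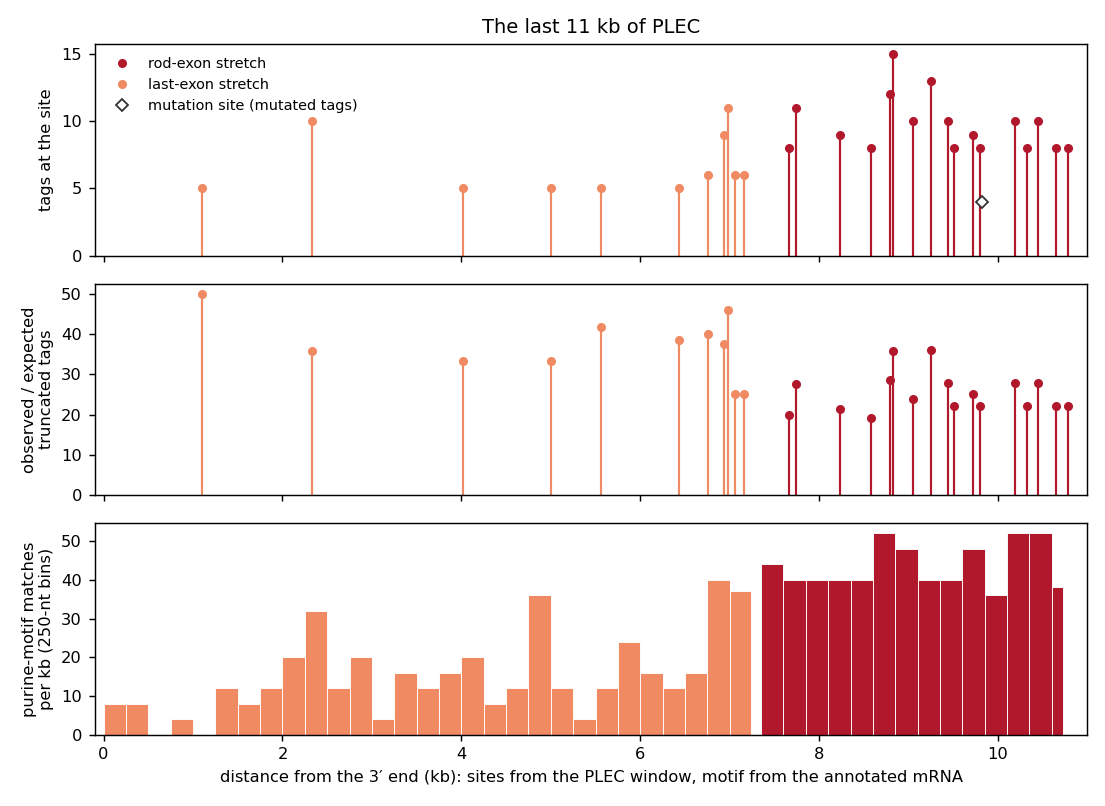
The last 11 kb of PLEC. From top to bottom: tags at each site, the ratio of observed to expected truncated tags, and matches to the purine motif GGAG per kb in 250-nt bins of the annotated mRNA, all against the distance in kb from the 3′ end. Sites and motif matches are both densest beyond 6.75 kb, where the 5′ end of the last exon and the rod exon lie; the observed to expected ratio is not higher there.

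The rod exon is purine-rich. It is 65.3% purine and 44.4% G, and only 8.10% U. The last exon is 51.1% purine and 32.6% G, and the upstream exons are 53.3 to 55.1% purine. The 4-letter motif GGAG was counted on the sense strand of the annotated mRNA, overlapping matches included, after the sites had been seen. It occurred 148 times in the rod exon, or 43.8 per kb, against 14.9 per kb in the last exon and 19.5 to 21.4 per kb in the upstream exons. Among 5829 annotated exons of 3000 nt or more in protein-coding transcripts, the rod exon of PLEC had the highest GGAG density. The median of these exons was 4.77 per kb and their 95th percentile 10.5 per kb. All of them hold the motif, and the last exon of PLEC was matched or passed by 43 of them (0.738%, itself included). Versions of an exon that differ in start or end count separately, so the 5829 overlap in part. The last exon of PLEC has such versions, and these may be among the 43. Among 1384 internal exons of 1000 nt or more, 4 had at least the density of the rod exon, itself included. The shorter GGA gave a smaller contrast, with 51.2 per kb in the rod exon, 26.2 in the last exon and 31.6 to 35.3 in the upstream exons. All 5829 long exons hold GGA. The rod exon's GGA density was reached by 3 of them and the last exon's by 178 (3.05%), each itself included. Not every purine motif followed this order. GAAGAA occurred 1 time in the rod exon (0.296 per kb) and 7 times in the last exon (0.966 per kb), and 87.6% of the 5829 long exons hold it.

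The share of G and A sets part of these counts. From its base composition alone the rod exon would hold 61.8 GGAG and the last exon 46.4, so the counts of 148 and 108 are 2.39 and 2.33 times that number. Within the last exon the matches were uneven. The 493 nt at its 5′ end held 19 matches, or 38.5 per kb, close to the 44.0 per kb of the full bins of the rod exon, while the other 6750 nt held 89, or 13.2 per kb. Among those others, the bin at 4750 to 5000 nt held 9, as many as 1 of the bins at the 5′ end, and the single site near it, 5004 nt from the end of the window, had 5 tags. The crowded 5 sites of the last-exon stretch lay 6757 to 7158 nt from the end of the window, beside those 493 nt at 6750 to 7243 nt. Matches are letters in the annotated sequence and are not sites. A link between them and the crosslinks was not tested.

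**Figure D3:**
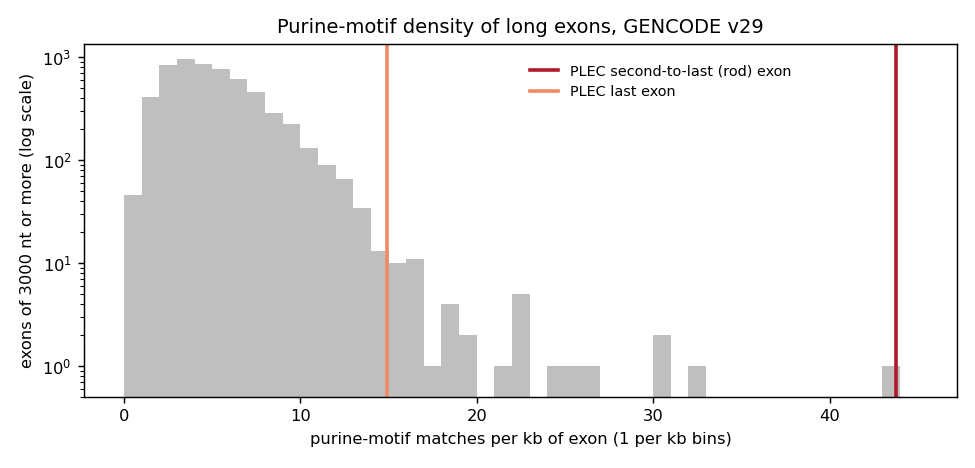
Density of the motif GGAG in 5829 annotated exons of 3000 nt or more, as a histogram with a log scale for the number of exons. The lines mark the PLEC rod exon at 43.8 and the PLEC last exon at 14.9 matches per kb; the median exon has 4.77.

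More tags at rod-exon sites came with a higher expected number. The clusters of the rod-exon stretch had 0.36 to 0.42 tags expected per position, against 0.1 to 0.28 in the last-exon stretch and 0.13 to 0.53 upstream. The ratio of observed to expected truncated tags ran the other way, with a median of 23.8 (range 19.0 to 36.1) in the rod-exon stretch, 37.5 (25 to 50) in the last-exon stretch and 35.7 (18.9 to 46.2) upstream. Every listed truncation site has a P of at most 0.001, so a site needed more tags to be listed where more were expected. At an expected number of 0.36 to 0.42, the 257 listed sites outside PLEC had at least 6 truncated tags, with a median of 9, the same as the rod-exon median. At 0.1 to 0.28 the 2689 sites outside PLEC had at least 4 tags and a median of 6, the same as in the last-exon stretch. The lowest rod-exon site had 8 tags, against 6 in the list at that expected number. The deposited P does not rest on the expected number alone. For 10 tags against 0.36 expected it was 1.59e-07 in cluster 11428 and 1.68e-08 at 144890883 to 144890903, outside PLEC. The fewest tags that could be listed may therefore differ between clusters, and this number was not determined for the rod-exon stretch. In cluster 11428 the deposited P rose from 1.59e-07 at 10 tags to 3.93e-06 at 9 and 8.66e-05 at 8. The sites with 8 tags may thus be near the fewest that could be listed there, and nothing is read from 8 against 6. The upstream sites were not set against such a band.

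**Figure D4:**
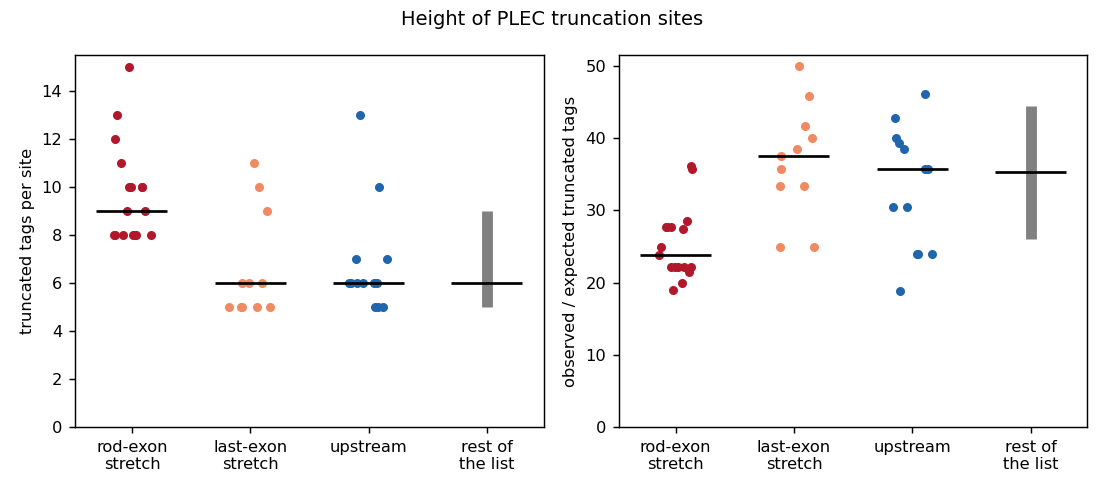
Truncated tags (left) and the ratio of observed to expected truncated tags (right) at the 41 PLEC truncation sites, by stretch, and in the rest of the list. Points are sites, black lines are medians and the grey bars are the quartiles over 4690 truncation sites; rod-exon sites have a median of 9 tags against 6 elsewhere, and a median ratio of 23.8 against 35.3 in the rest of the list.

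Upstream of the long exons the sites formed small groups. The nearest group held 8 truncation sites between 145001476 and 145003744, each with 5 to 7 truncated tags. Among them, 3 sites of cluster 11436 had 6 tags each and 2 sites of cluster 11443 had 7 each. A second group, 2664 nt farther, lay at 145006388 to 145007821 and held 4 truncation sites in 4 clusters. It included the highest upstream site, at 145006388 to 145006408, with 13 truncated tags against 0.33 expected, and its neighbour at 145006640 to 145006660 with 10 against 0.53 expected. No other upstream site had more than 7 truncated tags, so the upstream and rod-exon values overlapped only through this pair. The last truncation site on the 5′ side was at 145010860 to 145010880, with 5 tags. The median was 6 truncated tags over the 13 upstream truncation sites, 2 tags under the median of 8 over the 28 of the last 11 kb.

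Tag clusters were numbered upstream of the long exons as well, counted here only up to the last truncation site, at 145010860 to 145010880. Beyond that site, clusters could not be placed within the window. The list thus does not show whether tags reach the 36.0 kb with 0 listed sites. Tag clusters are numbered along each strand and the numbers of listed sites never decreased, so the numbers passed between sites count the clusters between them. From the first to the last truncation site of PLEC 127 clusters were numbered, and 21 of them held a truncation site (16.5%, 10.5 to 24.2%). Over the whole list at most 0.819% of numbered clusters held one. The gene was picked for its sites and both ends of the count are clusters with a site, so nothing is read from this gap. In the last 11 kb the share was 11 of 44 (25%, 13.2 to 40.3%), and upstream it was 10 of 76 (13.2%, 6.49 to 22.9%), so the intervals overlapped. Per 100 numbered clusters the ratio of sites was 2.95, against 7.86 per kb. The 2.95 counts mutation sites too, although the clusters were counted between truncation sites only. Upstream mutation sites beyond the last truncation site thus have no cluster counted for them. The long exons also differed in how the tags were broken up. The rod-exon stretch had 3 clusters over 3145 nt (0.954 per kb), all 3 with a site, and the last-exon stretch had 41 over 6081 nt (6.74 per kb), of which 8 had a site (19.5%, 8.82 to 34.9%). Upstream there were 8.08 numbered clusters per kb between the outermost truncation sites. Cluster lengths and tags away from the sites are not in the list, so coverage between sites was not measured.

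**Figure D5:**
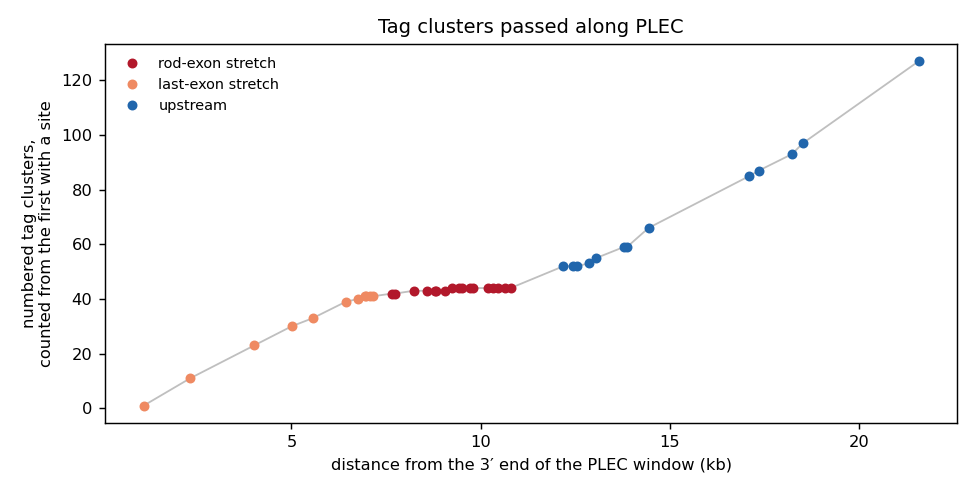
Numbered tag clusters passed along PLEC, counted from the first cluster with a truncation site, against the distance in kb from the 3′ end of the window. Points are truncation sites; the curve climbs through 41 clusters in the last-exon stretch, is nearly flat over the 3 clusters of the rod-exon stretch and climbs through 76 clusters upstream.

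Mutation sites were few, 5 of 46, so 89.1% of the PLEC sites were truncation sites (76.4 to 96.4%). The share was 69.9% in the rest of the list (68.8 to 71.0%) and 64.6% on the rest of the chromosome 8 minus strand (57.3 to 71.4%). Other crowded loci had shares on either side, with 94.4% on chromosome 15, 88.9% on chromosome 16, 68.2% on chromosome 11 and 50% on chromosome 21. The one in the rod-exon stretch, at 144999111 to 144999131, was covered by 16 tags, of which 4 were mutated (25%). It lay 17 nt 5′ of a truncation site with 8 tags at 144999094 to 144999114. The other 4 lay upstream, on the side of the gene where truncation sites ran out. At 145009372 to 145009392 there were 2 mutated of 6 tags, at 145010217 to 145010237 there were 2 of 8, and at 145012009 to 145012029 there were 3 of 12. The listed site farthest from the 3′ end, at 145014973 to 145014993, rested on 2 tags that were both mutated. Their distance to the nearest truncation site was between 643 and 4113 nt. With so few covering tags the mutated shares are not distinguishable from each other.

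Set beside the other crowded loci of the list, PLEC sites were more spread out and had fewer tags each, while observed tags over expected tags were higher than at 3 of the 4. Joining sites with gaps of at most 1000 nt gave a largest PLEC locus of 27 sites at 144993305 to 145000098, with 3.97 sites per kb, a median of 8 truncated tags, and 22 numbered clusters of which 9 held a truncation site. The locus on chromosome 11 plus strand (65266526 to 65273537) is about as long, with 85 sites, 12.1 per kb and a median of 11 tags. The median ratio of observed to expected tags was 27.6 at the PLEC locus and 14.1 on chromosome 11, where the median expected number was 0.36 at PLEC and 0.785 on chromosome 11. The locus on chromosome 15 minus strand (65243807 to 65247430) had 36 sites, 9.93 per kb, a median of 9 tags and a ratio of 34.0. The loci on chromosome 16 plus strand (33962596 to 33965862; 27 sites) and chromosome 21 plus strand (9825582 to 9827554; 24 sites) had medians of 12 tags on chromosome 16 and 17 on chromosome 21, with ratios of 19.7 on chromosome 16 and 10.8 on chromosome 21. The median expected number was 0.26 on chromosome 15, 0.52 on chromosome 16 and 1.58 on chromosome 21. Across all these loci, PLEC included, the median ratio was lower where the median expected number was higher. The highest truncation site reached 15 tags at the PLEC locus, against 17 on chromosome 15, 26 on chromosome 11, 33 on chromosome 21 and 42 on chromosome 16. These differences were not tested, since the loci were chosen by their number of sites.

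Of the gene's 41 truncation sites, 24 (58.5%) had more truncated tags than the list's median of 6, against 47.7% in the rest of the list. These were all 17 of the rod-exon stretch, but only 3 of 11 in the last-exon stretch and 4 of 13 upstream. More tags were expected in the rod-exon clusters, where no listed truncation site had under 8. The share of 58.5% is therefore not read as a trait of the whole gene. Only the site with 15 tags exceeded the list's 90th percentile of 13. A deposited P of 1e-05 or less was reached by 20 sites (48.8%), against 48.6% in the rest of the list.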

How the data were processed

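HITS-CLIP of SRSF1 in H1299 cells gave 2 samples in 1 group. Cutadapt, with no version named, BWA 0.7 and the build hg19 are named per the submitters' processing notes. The sources used here do not give other settings, the handling of duplicate and multiply mapped reads, or how the replicates were combined. For each site the authors deposited a tag count equal in all 6754 lines to the truncated or mutated tags in the site's name. Names follow the CTK toolkit, and the meaning of their fields is read from them. The list holds no library totals, so the tags per site are the depth behind each value.

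Members, boundaries and comparisons were chosen with earlier results of these data known. Positions are 1-based, and each PLEC interval is 21 nt. The 11 kb boundary is a round length for the last pair of exons. Exon lengths and RNA letters came from GENCODE 29 (GRCh38), with no coordinates converted. Named sites follow a set rule: the 5 highest, that with the lowest P, all mutation sites, those of clusters with more than 1 site, and those at the ends and at gaps. The site of uncertain place, the motifs, the crowded 5 sites and a few neighbours were chosen after seeing values. Shares carry exact Clopper-Pearson, densities exact Poisson and ratios exact conditional binomial 95% intervals (scipy 1.17.1, pandas 2.3.3). With 1 combined list no test between samples was possible, and none was made. The counting was tested on simulated data. Alternatives were other boundaries, tag or P limits, merging sites within 50 nt and other length scales.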

Additional observations from a re-analysis of the deposited data

How the results depend on the processing

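No paired analysis was possible because the 2 replicates form 1 group and the list has no column for either, which also prevented leaving one out. Of 52 alternatives, 33 stayed within the interval or 1.5 times of the reported value (for tag differences, within those of both medians), 16 moved and 3 changed direction. Keeping sites above the median tag count of their kind left 26 of 46 sites and moved the share in the last 11 kb from 63.0% to 80.8%. It moved the density ratio of that part from 7.86 to 19.4 and the ratio of rod to last exon from 3.51 to 12.9. This limit kept all 17 truncation sites of the rod-exon stretch, 3 of 11 of the last-exon stretch and 4 of 13 upstream. More tags were expected in the rod-exon clusters, where a site needed more to be listed. The limit therefore did not treat the stretches alike, and nothing is read from these shifts. With the boundary at 8 kb, inside the rod exon, the share was 28.3%, the density ratio 2.64, and the difference in median tags, 2, turned to -2. At 15 kb the share was 80.4%. The density ratio was 2.95 per numbered cluster, mutation sites included, and 2.28 over the upstream length with sites. With every upstream site taken as exonic it was 0.743 (0.395 to 1.44) and 0.646 (0.343 to 1.25) per kb of mRNA. Both values are below 1, with intervals that include it. The difference in median tags was 0 both with the highest site of each cluster and for the last-exon stretch alone. The share of clusters with a site, 16.5% over the gene, was 25% in the last 11 kb, also with boundaries at 10 and 12 kb, and 24.2% at 15 kb. The ratio of observed to expected tags, 28.6, became 36.1 with the highest site of each cluster. The causes were not tested. Sites of few tags set the limit: no listed truncation site has under 4 tags, so weaker positions of PLEC cannot be seen. The lowest truncation site listed in PLEC had 5 tags, and the lowest in the rod-exon stretch had 8. What is hidden may therefore differ between the stretches.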

Other observations

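On the minus strand around PLEC, more sites were listed on its 3′ side than on its 5′ side. On the plus strand 0 sites fell inside the window, and the nearest were a site with 5 truncated tags 365 kb away on the low side and a site with 6 truncated tags 100.1 kb away on the high side. On the minus strand the next site toward higher coordinates lay 462 kb away, and 0 sites were listed in the first 200 kb of that side. On the low side, in the same 200 kb, 12 sites were listed, out of 189 on the whole chromosome 8 minus strand outside PLEC. Of the 12, 11 were truncation sites with a median of 6 tags (range 4 to 18). The closest of these, at 144920960 to 144920980, had 4 truncated tags and lay 68.3 kb from the window. The highest was at 144899205 to 144899225, with 18 truncated tags against 0.42 expected, more than any site of PLEC. A cluster with 3 sites lay at 144890883 to 144890966, with 10, 11 and 9 truncated tags in 84 nt. These neighbours are given by position alone, with no gene named. Between the closest of them and the first PLEC cluster, 81 tag clusters were numbered that hold no listed truncation site.

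The annotation also lists a PLEC transcript that skips the rod exon, of 11406 nt, in which a 99-nt exon precedes the last exon. The list pools all transcripts, so how many tags came from RNA with or without the rod exon cannot be told from it.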
